A study of Rattus norvegicus with 12 samples.

Results

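The Slc25 family was examined in kidney cortex of rats with and without diabetes. Members were all probe sets whose array annotation names exactly 1 gene with a symbol of the form Slc25a and a number, and 50 of the 31042 non-control probe sets met this rule, standing for 37 genes. Of these, 41 probe sets of 32 genes were bright enough to be tested. The study compared diabetic with nondiabetic male rat littermates at 10 and at 20 weeks of age, to ask about puberty and diabetes in the kidney, on 12 arrays in 4 groups of 3. Diabetic rats at 10 weeks were injected with streptozocin, a toxin of pancreatic beta cells, into a vein at 4 weeks of age (65 mg/kg), and nondiabetic rats at 10 weeks had the vehicle injection at that age. Diabetic rats at 20 weeks had the same dose at 14 weeks, and nondiabetic rats at 20 weeks had vehicle at 14 weeks. Diabetic rats got an insulin palmitate pellet 3 days later and nondiabetic rats a palmitate vehicle pellet, and all were kept for 6 weeks with free access to food. The sample labels give blood glucose of 350 to 450 mg/dl for diabetic rats, whereas the series description gives 350 at both ends. Streptozocin and insulin were given to diabetic rats alone, so the effects of hyperglycaemia, toxin and pellet cannot be told apart. The label of 10-week diabetic replicate 1 names a vehicle pellet of insulin palmitate, and results were therefore also computed without it.

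Slc25 proteins sit in the inner mitochondrial membrane, with a few in other membranes, and exchange solutes between cytosol and matrix. They export ATP, bring in phosphate, move citrate, malate and oxoglutarate, and pass aspartate and glutamate in the malate-aspartate shuttle, which carries reducing equivalents into the matrix. The kidney cortex is made mostly of proximal tubules, which are rich in mitochondria and burn fatty acids, glutamine and other fuels to drive reabsorption. The signals come from whole cortex, in which fewer cells of a type and less RNA per cell cannot be told apart.

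The arrays correlated with each other between 0.941 and 0.976 over the probe sets tested, and all had a trimmed mean signal of 500.2. The 8 proximal tubule markers were all measured, and their summed signal overlapped between groups, at 118329 to 136510 in diabetic and 120903 to 132956 in nondiabetic rats at 10 weeks, and at 124542 to 129788 in diabetic and 116468 to 136818 in nondiabetic rats at 20 weeks. RNA quality was read from the Gapdh controls, whose 3' over 5' signal goes up with degradation. This ratio was 1.44 to 1.495 in diabetic and 1.41 to 1.46 in nondiabetic rats at 10 weeks. At 20 weeks it was 1.60 to 1.75 in diabetic and 1.42 to 2.09 in nondiabetic rats, with the highest value in nondiabetic replicate 1. The same ratio of the beta-actin controls was 6.30 to 8.57 in diabetic and 6.75 to 7.47 in nondiabetic rats at 10 weeks. At 20 weeks it was 7.46 to 11.4 in diabetic and 6.87 to 11.2 in nondiabetic rats, with the highest value in diabetic replicate 2, and its part in the carrier results was not tested. Without that array 2 members passed over both ages and 1 at 20 weeks, beside 4 and 3 with it. The counts were the same without 20-week nondiabetic replicate 2, which had a beta-actin ratio of 6.87.

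Over both ages, 4 of the 41 carrier probe sets passed the test of diabetic against nondiabetic rats: Slc25a34 was higher, and Slc25a45, Slc25a13 and a dimmer probe set of Slc25a23 were lower. Passing means an adjusted p under 0.05 in limma, with Benjamini-Hochberg adjustment over the 18625 probe sets tested. These 4 are 9.76% of the members, beside 4.47% of all probe sets tested (2.14% higher and 2.34% lower). At 20 weeks alone, 3 members passed (Slc25a34 higher, Slc25a45 and Slc25a13 lower), which is 7.32% beside 2.84% of all probe sets (1.22% higher and 1.62% lower). At 10 weeks alone none of the 41 passed in limma, where 0.306% of all probe sets did, and 10 of the 41 had an unadjusted p below 0.05 (24.4%, beside 10.9% of all probe sets). Over both ages 14 of the 41 had one (34.1%, beside 17.9%). The median log2 difference of the members over both ages was 0.0019, beside -0.010 over all probe sets, so higher and lower members were about equally many (21 and 20).

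The start regions of the 4 genes that passed are shown because these genes differed with diabetes. Each is 250 bases before to 50 bases after the annotated start, from RefSeq on GRCr8, 5′ to 3′ on the strand of the gene. Slc25a45 lies at chr1:212596601-212596900 on the plus strand, Slc25a34 at chr5:159219843-159220142 on the minus strand, Slc25a13 at chr4:35328311-35328610 on the minus strand and Slc25a23 at chr9:1985316-1985615 on the minus strand. Capitals mark matches on either strand to the motifs named after the sequences.
Slc25a45: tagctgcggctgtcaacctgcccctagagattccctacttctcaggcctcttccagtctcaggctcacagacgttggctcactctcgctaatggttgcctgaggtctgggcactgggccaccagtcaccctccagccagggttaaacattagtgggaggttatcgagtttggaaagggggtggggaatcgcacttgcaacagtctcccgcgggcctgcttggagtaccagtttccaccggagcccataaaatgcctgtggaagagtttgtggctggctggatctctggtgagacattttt
Slc25a34: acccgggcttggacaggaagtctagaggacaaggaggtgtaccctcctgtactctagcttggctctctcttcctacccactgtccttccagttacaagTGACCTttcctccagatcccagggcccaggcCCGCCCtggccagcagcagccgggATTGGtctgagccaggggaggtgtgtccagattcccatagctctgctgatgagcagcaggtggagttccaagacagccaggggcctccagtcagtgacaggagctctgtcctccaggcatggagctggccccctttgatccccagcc
Slc25a13: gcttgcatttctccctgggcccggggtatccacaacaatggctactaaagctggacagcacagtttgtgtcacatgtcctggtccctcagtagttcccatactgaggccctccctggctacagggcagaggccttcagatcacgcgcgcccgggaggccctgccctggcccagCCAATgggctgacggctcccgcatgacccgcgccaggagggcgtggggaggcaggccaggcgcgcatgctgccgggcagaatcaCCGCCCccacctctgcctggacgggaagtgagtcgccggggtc
Slc25a23: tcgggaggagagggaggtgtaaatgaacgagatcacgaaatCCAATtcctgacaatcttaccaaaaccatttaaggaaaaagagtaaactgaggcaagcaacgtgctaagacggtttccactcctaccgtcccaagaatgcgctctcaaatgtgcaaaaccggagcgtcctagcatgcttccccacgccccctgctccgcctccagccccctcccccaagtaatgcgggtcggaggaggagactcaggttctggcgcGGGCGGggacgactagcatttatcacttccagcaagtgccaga

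Searched on both strands were CCAAT (the CCAAT box), the GC box GGGCGG, the TATA box TATAAA, the core AGGTCA bound by nuclear receptors and the core CCGGAAG bound by ETS factors and GABPA; none of these letter strings contains another. They were chosen with the sequences at hand, and a match is a description of letters. Slc25a34 held the AGGTCA core, the CCAAT box and the GC box, each on the reverse strand. Slc25a13 and Slc25a23 each held a CCAAT box and a GC box, and Slc25a45 held none of the 5. Of the 37 member genes 32 had a start region in the table. Among these 32, GGGCGG was found in 24, CCAAT in 18, AGGTCA in 5, CCGGAAG in 5 and TATAAA in 2. Over all 33469 start regions of the genome the shares were 33.1%, 37.5%, 16.2%, 8.75% and 14.2% in the same order. Member regions were counted once per gene, whereas the full set was not reduced in that way. The GC content of the regions shown was 55.7% for Slc25a45, 60.7% for Slc25a34, 66.3% for Slc25a13 and 54.3% for Slc25a23, beside a median of 51.7% over all.

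Slc25a45, long listed among the orphan carriers, was lower in diabetic rats at 20 weeks and over both ages. Its signal was 1425.6, 1620.6 and 1541.4 in diabetic rats and 1937.7, 2263.1 and 1771.5 in nondiabetic rats at 10 weeks. At 20 weeks it was 1240.4, 1272.8 and 1057.9 in diabetic rats and 1780.7, 2025.6 and 1886.1 in nondiabetic rats. The groups did not overlap at either age, and the 3 diabetic arrays at 20 weeks were the lowest of all 12. The means were 1529 ± 98.1 in diabetic and 1991 ± 250 in nondiabetic rats at 10 weeks, and 1190 ± 116 in diabetic and 1897 ± 123 in nondiabetic rats at 20 weeks (SD, n = 3 each). Over both ages the log2 difference was -0.53 ± 0.077 (SE), a 1.44-fold lower signal (limma, adjusted p = 0.0023). At 20 weeks it was -0.68 ± 0.11, or 1.60-fold lower (limma, adjusted p = 0.00653), and at 10 weeks -0.38 ± 0.11 (limma, adjusted p = 0.22). Both calls were kept under each alternative run, with an adjusted p of 0.00188 to 0.0132 over both ages and of 0.00521 to 0.0349 at 20 weeks.

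Slc25a34, a further orphan carrier, was the sole member that passed with a higher signal. Its signal was 167.1, 189.0 and 160.2 in diabetic rats and 69.9, 124.0 and 129.9 in nondiabetic rats at 10 weeks. At 20 weeks it was 284.5, 305.3 and 287.9 in diabetic rats and 157.7, 143.5 and 155.7 in nondiabetic rats. Diabetic and nondiabetic arrays did not overlap at either age. The means were 172 ± 15.1 in diabetic and 108 ± 33.1 in nondiabetic rats at 10 weeks, and 293 ± 11.1 in diabetic and 152 ± 7.66 in nondiabetic rats at 20 weeks (SD, n = 3 each). The signal was 1.78-fold higher over both ages (log2 difference 0.83 ± 0.16 SE, limma, adjusted p = 0.0115) and 1.92-fold higher at 20 weeks (0.94 ± 0.23, adjusted p = 0.046), with 0.72 ± 0.23 at 10 weeks (adjusted p = 0.256). The call over both ages was kept under all 21 alternatives in which the probe set was tested, while that at 20 weeks was lost in 16 of 22. It was lost without any 1 of the 20-week diabetic arrays 1, 2 and 3 (adjusted p = 0.104, 0.139 and 0.125), the 20-week nondiabetic arrays 1, 2 and 3 (0.0865, 0.142 and 0.0859), the 10-week diabetic arrays 1, 2 and 3 (0.0647, 0.0592 and 0.0659) or 10-week nondiabetic array 2 (0.0523), and under 6 other settings (0.0567 to 0.116).

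**Figure D1:**
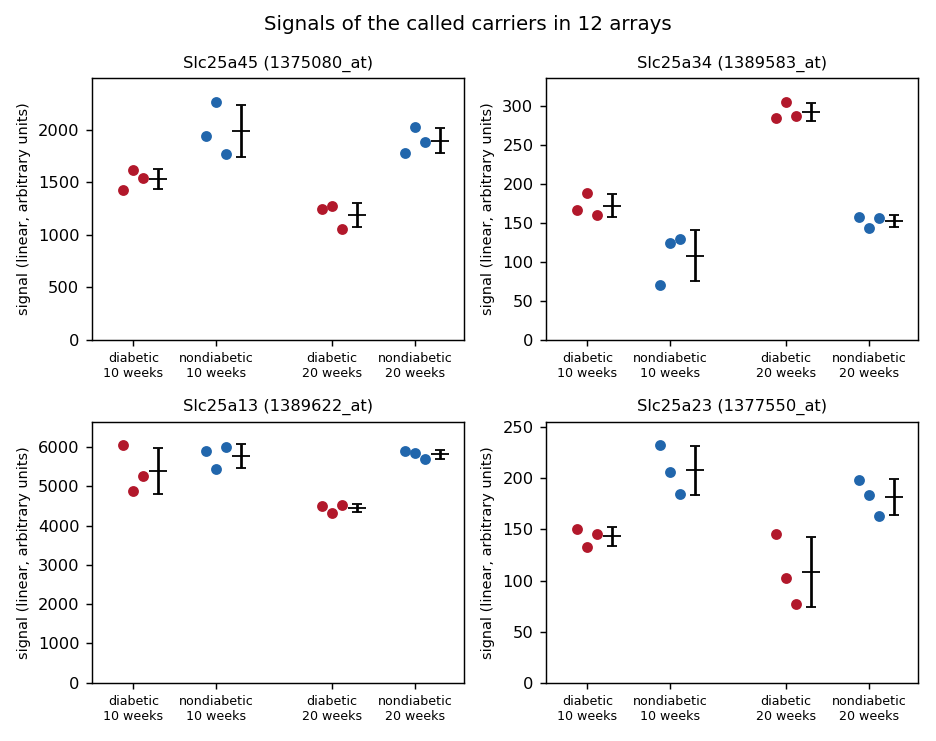
Signal (linear, arbitrary units, axes from 0) of the 4 carrier probe sets that passed in a diabetes comparison, in diabetic (red) and nondiabetic (blue) rats at 10 and 20 weeks; points are arrays, bars the mean ± SD of 3. Slc25a45 and Slc25a23 lie lower and Slc25a34 higher in diabetic rats at both ages without overlap, and Slc25a13 lies apart at 20 weeks only.

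Slc25a35 and Slc25a46 were the other tested orphan genes, and neither passed. Slc25a46, an outer-membrane member with a part in mitochondrial fission and fusion, was the orphan member with the highest signal. Its brighter probe set measured 3661.2, 3578.7 and 3662.6 in diabetic and 3671.2, 3799.7 and 3143.3 in nondiabetic rats at 10 weeks, and 3072.6, 2825.8 and 3322.9 in diabetic and 3469.5, 3737.0 and 3816.0 in nondiabetic rats at 20 weeks. The groups overlapped at 10 weeks and not at 20 weeks, where the log2 difference was -0.26 ± 0.09 (limma, adjusted p = 0.15). Its second probe set gave -0.03 at 20 weeks. Slc25a35 had a log2 difference of -0.47 ± 0.21 at 20 weeks (limma, adjusted p = 0.272), and Slc25a53 was too dim to test.

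Of the 10 tested probe sets placed with the amino acid carriers, 1 passed (10%, beside 4.47% of all probe sets over both ages). Counted by gene, with the brightest probe set of each, 1 of 7 passed (14.3%). Among the 7 was Slc25a48, which is known as a choline carrier. Slc25a13 (citrin), the calcium-regulated aspartate/glutamate carrier of the malate-aspartate shuttle, was lower in diabetic rats at 20 weeks and over both ages. Its brighter probe set measured 6040.8, 4891.6 and 5249.1 in diabetic and 5890.6, 5435.0 and 5989.5 in nondiabetic rats at 10 weeks, and 4503.0, 4320.0 and 4522.8 in diabetic and 5902.6, 5849.3 and 5692.6 in nondiabetic rats at 20 weeks. The groups overlapped at 10 weeks, and at 20 weeks every diabetic array lay below every nondiabetic one. The means were 5394 ± 588 in diabetic and 5772 ± 296 in nondiabetic rats at 10 weeks, and 4449 ± 112 in diabetic and 5815 ± 109 in nondiabetic rats at 20 weeks (SD, n = 3 each). The log2 difference was -0.39 ± 0.08 at 20 weeks, a 1.31-fold lower signal (limma, adjusted p = 0.0259), -0.10 ± 0.08 at 10 weeks (adjusted p = 0.693) and -0.24 ± 0.057 over both ages, or 1.18-fold lower (adjusted p = 0.0307). The dimmer Slc25a13 probe set had the same sign, at -0.57 ± 0.19 at 20 weeks (limma, adjusted p = 0.133) and -0.38 ± 0.13 over both ages (adjusted p = 0.143). The 20-week call was lost without any 1 of the 20-week diabetic arrays 1, 2 and 3 (limma, adjusted p = 0.0622, 0.0932 and 0.074) or nondiabetic arrays 1, 2 and 3 (0.063, 0.0841 and 0.0509). The call over both ages was lost in 12 of 22 alternatives, among them median centring (adjusted p = 0.122) and leaving out 10-week diabetic array 2 or 3 (0.0707 and 0.0703), 10-week nondiabetic array 1 or 3 (0.0704 and 0.0598), 20-week diabetic array 1, 2 or 3 (0.057, 0.0715 and 0.0594) or 20-week nondiabetic array 1 or 2 (0.0591 and 0.061).

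Slc25a12 (aralar), the other aspartate/glutamate carrier, had the opposite sign and did not pass, and it was chosen after its values were seen. It measured 682.7, 764.7 and 694.9 in diabetic and 558.8, 527.8 and 655.7 in nondiabetic rats at 10 weeks, and 841.0, 699.8 and 548.9 in diabetic and 470.0, 540.5 and 571.2 in nondiabetic rats at 20 weeks. The groups did not overlap at 10 weeks and overlapped at 20 weeks through 1 diabetic array. The log2 difference over both ages was 0.34 ± 0.11 (limma, adjusted p = 0.0995). The remaining members of the class did not pass either. Over both ages their log2 differences were 0.31 ± 0.14 for the glutamate carrier Slc25a22, 0.14 ± 0.10 for Slc25a29, which carries basic amino acids, and -0.04 ± 0.10 for the glycine carrier Slc25a38. The probe sets of Slc25a44, a carrier of branched-chain amino acids, gave 0.12 ± 0.09 and 0.20 ± 0.15, and those of Slc25a48 0.29 ± 0.18 and 0.04 ± 0.13. The glutamate carrier Slc25a18 was too dim to test. Over the 10 tested probe sets of the class the median log2 difference was 0.23 at 10 weeks (8 positive) and -0.013 at 20 weeks (5 positive), and over both ages 0.13. Without Slc25a48 the medians of the 8 remaining probe sets were 0.16, 0.088 and 0.13 in the same order.

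**Figure D2:**
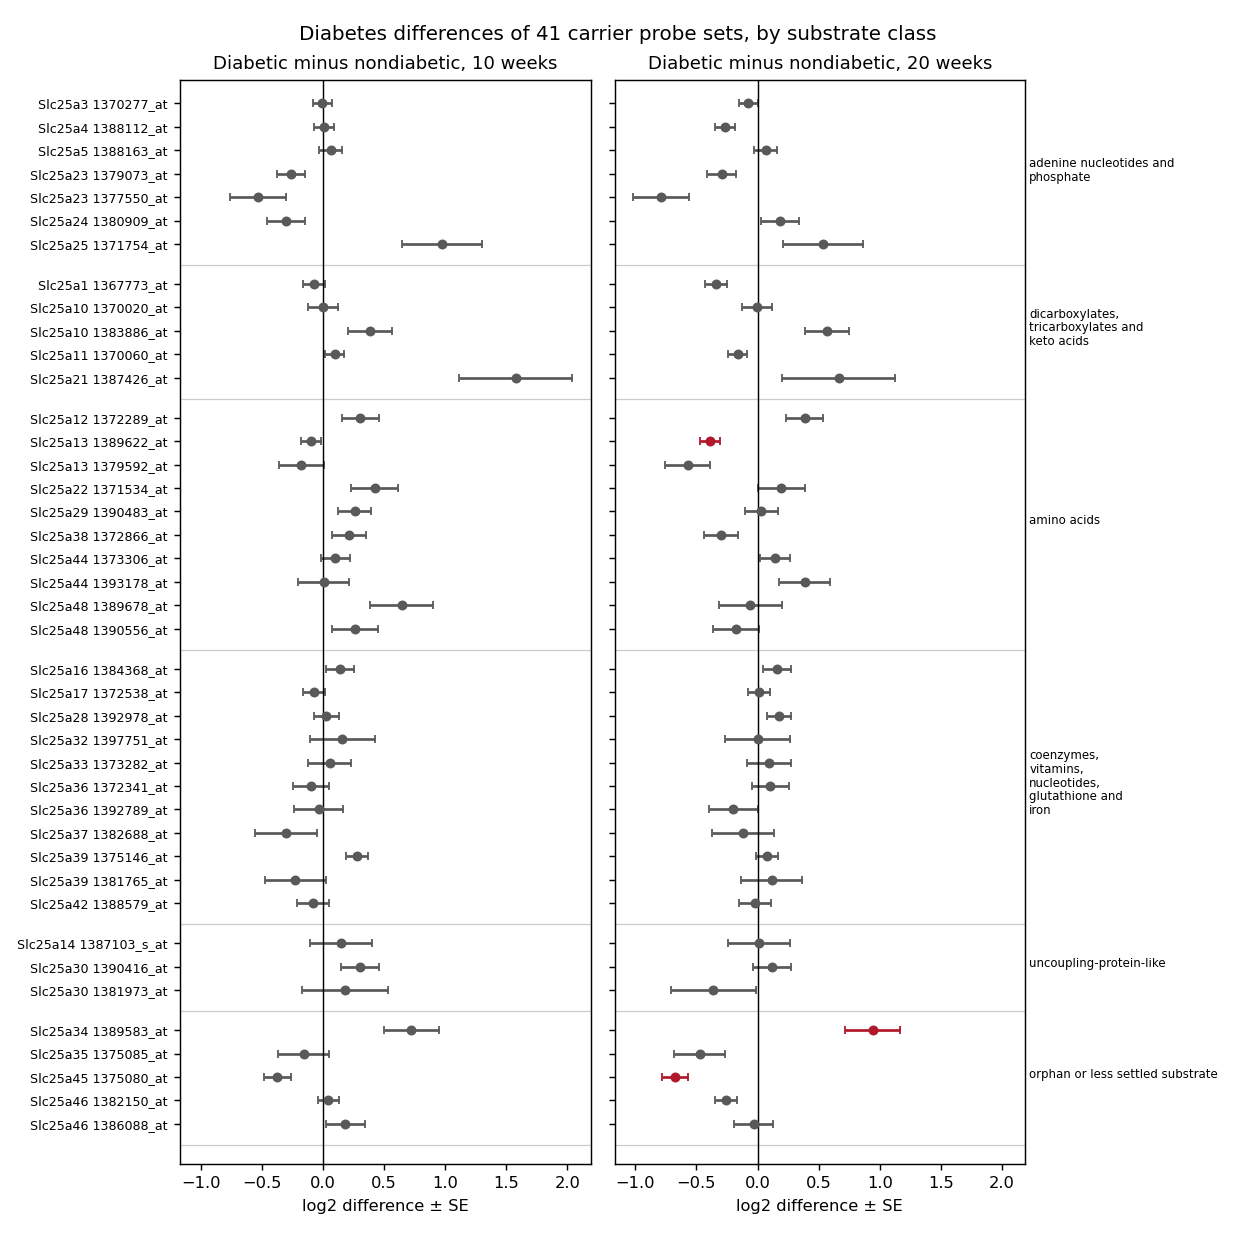
Log2 difference ± SE of diabetic minus nondiabetic rats at 10 weeks (left) and 20 weeks (right) for the 41 carrier probe sets tested, grouped by substrate class on 1 scale; red marks an adjusted p under 0.05. None is red at 10 weeks, and Slc25a13, Slc25a34 and Slc25a45 are red at 20 weeks.

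Among the carriers of adenine nucleotides and phosphate, 1 of 7 tested probe sets passed (14.3%, beside 4.47% of all probe sets over both ages). Counted by gene, with the brightest probe set of each, 0 of 6 passed. The bright ADP/ATP and phosphate carriers did not pass. Slc25a23, Slc25a24 and Slc25a25 are calcium-regulated carriers that exchange ATP-Mg for phosphate and so set the adenine nucleotide content of the matrix. A dim probe set of Slc25a23 measured 150.7, 133.0 and 145.7 in diabetic and 232.2, 206.1 and 185.0 in nondiabetic rats at 10 weeks, and 145.1, 102.8 and 77.3 in diabetic and 197.9, 183.3 and 163.3 in nondiabetic rats at 20 weeks. The groups did not overlap at either age. The log2 difference over both ages was -0.66 ± 0.16, a 1.58-fold lower signal (limma, adjusted p = 0.0388), with -0.53 ± 0.23 at 10 weeks (adjusted p = 0.424) and -0.79 ± 0.23 at 20 weeks (adjusted p = 0.0953). The brightest Slc25a23 probe set measured 1448.2, 1382.0 and 1246.3 in diabetic and 1342.9, 1807.9 and 1778.1 in nondiabetic rats at 10 weeks, and 1615.9, 1521.1 and 1381.9 in diabetic and 1883.4, 1745.7 and 1899.0 in nondiabetic rats at 20 weeks. It had the same sign, overlapped at 10 weeks through 1 nondiabetic array and did not pass (-0.28 ± 0.08, limma, adjusted p = 0.0824). Another Slc25a23 probe set was too dim to test, as was Slc25a41, which lies next to Slc25a23 on chromosome 9 with 0 protein-coding genes between. The call was lost in 14 of 21 alternatives (limma): without both 10-week diabetic array 1 and 20-week nondiabetic array 1 (adjusted p = 0.121), without 10-week diabetic array 1, 2 or 3 (0.0682, 0.0885 and 0.0715), 10-week nondiabetic array 1 or 2 (0.0944 and 0.0781), 20-week diabetic array 2 or 3 (0.0765 and 0.0751) or 20-week nondiabetic array 1, 2 or 3 (0.0786, 0.0744 and 0.0531), under median centring (0.0587), with no filter on dim probe sets (0.0744) and with the Gapdh ratio as a covariate (0.0507).

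Slc25a25 had the opposite sign and did not pass; it is described here because of its size, so it was chosen after its values were seen. It measured 1107.5, 529.9 and 531.7 in diabetic and 303.6, 303.1 and 448.9 in nondiabetic rats at 10 weeks, and 700.3, 753.0 and 1165.4 in diabetic and 405.9, 573.4 and 871.6 in nondiabetic rats at 20 weeks. The arrays did not overlap at 10 weeks and overlapped at 20 weeks. The spread within groups was wide, and the log2 difference over both ages was 0.75 ± 0.23 (limma, adjusted p = 0.093). Slc25a24 had -0.30 ± 0.15 at 10 weeks and 0.19 ± 0.15 at 20 weeks, neither of which passed.

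Slc25a5, an ADP/ATP carrier and the brightest member of its class, showed no difference that passed. It measured 20468.0, 23206.5 and 22351.8 in diabetic and 20652.3, 22179.4 and 20392.1 in nondiabetic rats at 10 weeks, and 20817.2, 22306.6 and 21026.1 in diabetic and 18646.4, 19075.6 and 23870.7 in nondiabetic rats at 20 weeks. The groups overlapped at both ages, and the 95% interval of the log2 difference over both ages was -0.08 to 0.21. For the phosphate carrier Slc25a3 this interval was -0.16 to 0.08. Slc25a4, the ADP/ATP carrier of heart and muscle, was chosen after its values were seen. It measured 6766.9, 7235.7 and 6525.5 in diabetic and 6484.6, 6693.2 and 7279.7 in nondiabetic rats at 10 weeks, and 5497.3, 5087.5 and 5012.9 in diabetic and 5621.1, 6406.5 and 6762.4 in nondiabetic rats at 20 weeks. The 3 diabetic arrays at 20 weeks were the lowest of the 12, with a log2 difference of -0.27 ± 0.08 at 20 weeks (limma, adjusted p = 0.121). Slc25a31, known as a testis ADP/ATP carrier in mouse and human, was too dim to test.

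**Figure D3:**
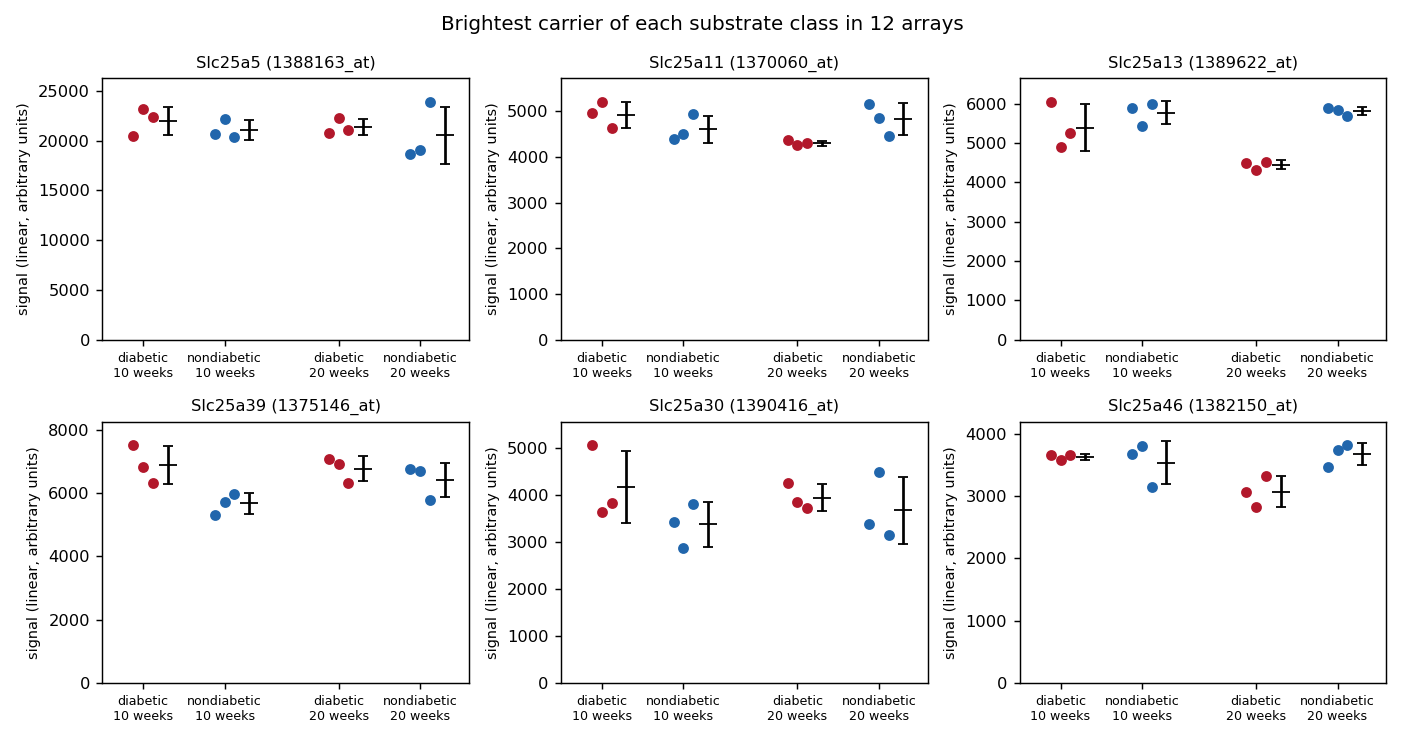
Signal (linear, arbitrary units, axes from 0) of the probe set with the highest mean signal in each of the 6 substrate classes, in diabetic (red) and nondiabetic (blue) rats at 10 and 20 weeks; points are arrays, bars the mean ± SD of 3. Slc25a13 alone of the 6 passed the test, and diabetic and nondiabetic points of Slc25a5 mix at both ages.

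None of the 5 tested probe sets of the carriers of dicarboxylates, tricarboxylates and keto acids passed in limma over both ages. Of these, 3 had an unadjusted p below 0.05 (60%, beside 17.9% of all probe sets), namely Slc25a1, Slc25a21 and the dimmer probe set of Slc25a10. Counted by gene, with the brightest probe set of each, it was 2 of 4 (50%). Slc25a21 passed the filter on dim probe sets with a nondiabetic mean below its limit, so no excess is read from these shares. Slc25a10 exchanges malate or succinate for phosphate, and its probe sets disagreed. The dimmer measured 384.9, 420.8 and 305.4 in diabetic and 294.8, 315.6 and 239.1 in nondiabetic rats at 10 weeks, and 391.9, 350.2 and 470.8 in diabetic and 233.1, 283.8 and 299.4 in nondiabetic rats at 20 weeks. These groups overlapped at 10 weeks and not at 20 weeks, and the log2 difference over both ages was 0.48 ± 0.13 (limma, adjusted p = 0.0504). The brighter Slc25a10 probe set measured 3185.0, 2985.1 and 2545.7 in diabetic and 3051.5, 2990.6 and 2650.9 in nondiabetic rats at 10 weeks, and 2531.8, 2066.7 and 2606.0 in diabetic and 2628.4, 2565.9 and 2040.5 in nondiabetic rats at 20 weeks. This probe set, likewise chosen after its values were seen, overlapped at both ages, with a 95% interval of the log2 difference of -0.19 to 0.19 over both ages.

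The citrate carrier Slc25a1, which supplies the cytosol with citrate for fatty acid synthesis, had a log2 difference of -0.34 ± 0.09 at 20 weeks (limma, adjusted p = 0.0705), -0.07 ± 0.09 at 10 weeks and -0.20 ± 0.06 over both ages (adjusted p = 0.0998). Its diabetic and nondiabetic arrays did not overlap at 20 weeks. Slc25a11, the oxoglutarate/malate carrier of the malate-aspartate shuttle and the brightest of the class, measured 4956.4, 5203.1 and 4634.2 in diabetic and 4385.4, 4508.0 and 4948.4 in nondiabetic rats at 10 weeks, and 4365.9, 4255.9 and 4299.3 in diabetic and 5162.9, 4857.5 and 4468.0 in nondiabetic rats at 20 weeks. Its groups overlapped at 10 weeks and not at 20 weeks, and it did not pass (-0.16 ± 0.08 at 20 weeks, limma, adjusted p = 0.315). Slc25a21, the oxodicarboxylate carrier, did not pass (limma, adjusted p = 0.0774 over both ages). It measured 159.9, 120.7 and 132.8 in diabetic and 52.2, 19.8 and 93.8 in nondiabetic rats at 10 weeks, and 172.2, 120.4 and 214.1 in diabetic and 77.9, 109.1 and 130.7 in nondiabetic rats at 20 weeks. The groups did not overlap at 10 weeks and overlapped at 20 weeks, and the geometric mean was 150 in the diabetic arrays and 69.0 in the nondiabetic arrays. The nondiabetic mean lies below the limit of the filter on dim probe sets (70.9), so the size of the fitted log2 difference (1.12 ± 0.33) is uncertain. It was the 1 member of the 41 that passed the filter with diabetic or nondiabetic arrays below the limit on average. Slc25a21 was chosen after its values were seen.

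**Figure D4:**
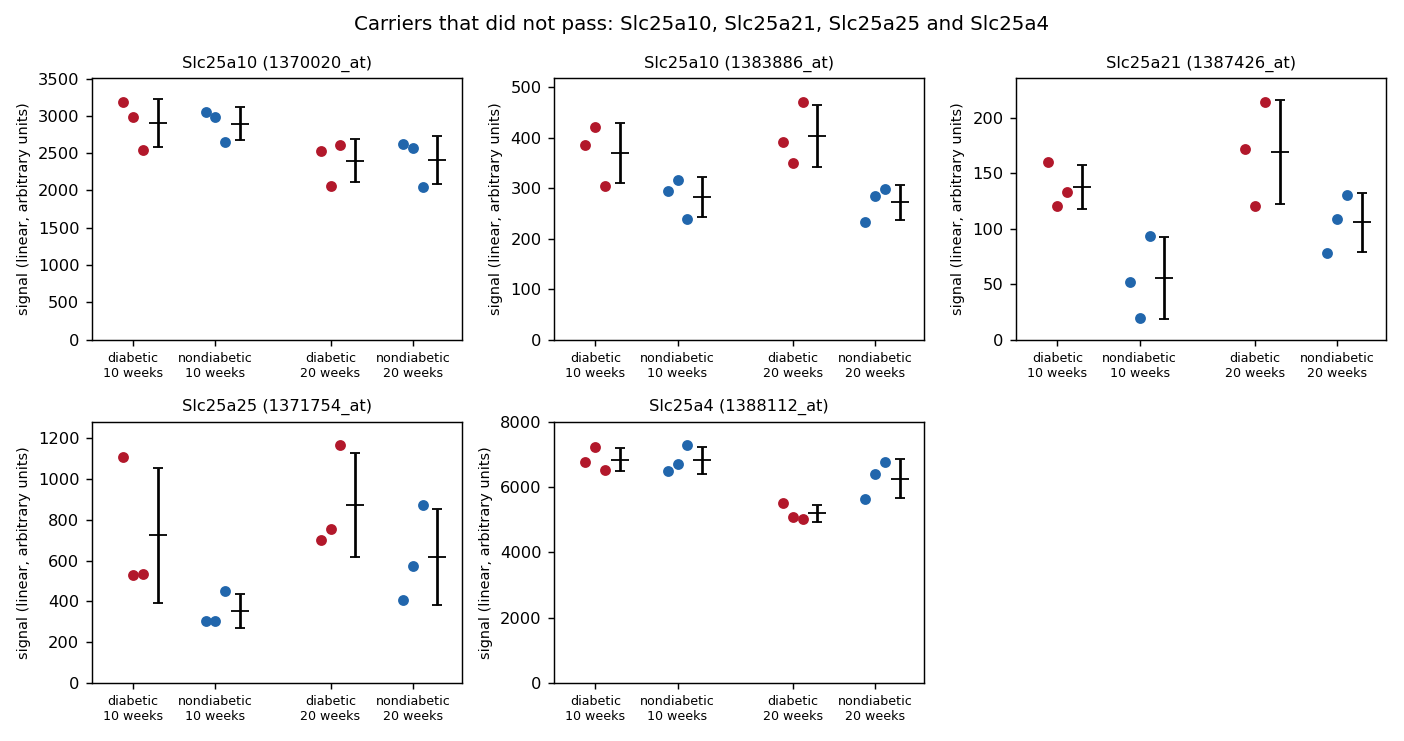
Signal (linear, arbitrary units, axes from 0) of both Slc25a10 probe sets, Slc25a21, Slc25a25 and Slc25a4 in diabetic (red) and nondiabetic (blue) rats at 10 and 20 weeks; points are arrays, bars the mean ± SD of 3. None passed the test; the brighter Slc25a10 probe set overlaps at both ages, and Slc25a4 is lowest in the 3 diabetic arrays at 20 weeks.

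None of the 11 tested probe sets for carriers of coenzymes, vitamins, nucleotides, glutathione and iron passed in limma over both ages. Only 1 had an unadjusted p below 0.05 (9.09%, beside 17.9% of all probe sets). This was the brighter probe set of the glutathione carrier Slc25a39, which was also the class member with the highest signal. It measured 7518.4, 6848.5 and 6338.5 in diabetic and 5315.9, 5738.2 and 5978.9 in nondiabetic rats at 10 weeks, and 7074.9, 6928.7 and 6338.6 in diabetic and 6774.3, 6709.9 and 5796.8 in nondiabetic rats at 20 weeks. The groups did not overlap at 10 weeks (log2 difference 0.28 ± 0.09, limma, adjusted p = 0.26) and overlapped at 20 weeks (0.08 ± 0.09), with 0.18 ± 0.06 over both ages (adjusted p = 0.143). A dimmer Slc25a39 probe set gave -0.06 ± 0.18.

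The log2 differences of the other members of this class over both ages lay between -0.21 and 0.15. The iron carriers (mitoferrins) had -0.21 ± 0.18 for Slc25a37 and 0.10 ± 0.07 for Slc25a28. Slc25a16 and Slc25a42, which bear on coenzyme A, had 0.15 ± 0.08 and -0.05 ± 0.09, and the peroxisomal carrier Slc25a17 had -0.03 ± 0.06. Slc25a32, which carries folate and FAD, had 0.08 ± 0.19. The pyrimidine nucleotide carriers had 0.07 ± 0.13 for Slc25a33, and 0.0019 and -0.12 for the 2 probe sets of Slc25a36. The 95% intervals of the bright members were narrow, for example -0.17 to 0.11 for Slc25a17, and those of dim members were wide, for example -0.33 to 0.49 for Slc25a32. A second Slc25a32 probe set was too dim to test.

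The uncoupling-protein-like members did not pass in limma, and none of their 3 tested probe sets had an unadjusted p below 0.05 in a diabetes comparison. Slc25a30, first described as a kidney mitochondrial carrier, had the highest signal and the smallest p of the class. Its brighter probe set measured 5065.5, 3642.1 and 3844.6 in diabetic and 3434.5, 2879.2 and 3820.1 in nondiabetic rats at 10 weeks, and 4265.7, 3856.6 and 3730.6 in diabetic and 3393.7, 4499.6 and 3142.7 in nondiabetic rats at 20 weeks. The groups overlapped at both ages, and the log2 difference over both ages was 0.21 ± 0.11 (limma, adjusted p = 0.344). A dimmer Slc25a30 probe set gave -0.09 ± 0.25 and Slc25a14 gave 0.08 ± 0.18. All 3 probe sets of Slc25a27, known from brain, were too dim to test.

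The spread between arrays set what could be seen. Among the 21 brighter of the tested members (geometric mean signal above 585) the median SD of log2 signal within groups was 0.132, and among the 20 dimmer it was 0.243. The median SE of a diabetes difference at 1 age was 0.108 in the brighter and 0.203 in the dimmer members. Of the 9 genes with 2 tested probe sets, Slc25a13, Slc25a23, Slc25a44 and Slc25a48 had the same sign on both over both ages, and Slc25a10, Slc25a30, Slc25a36, Slc25a39 and Slc25a46 did not. Diabetic and nondiabetic arrays did not overlap for 9 of 41 members at 10 weeks (22.0%, beside 17% of all probe sets) and for 12 of 41 at 20 weeks (29.3%, beside 20.9%).

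Whether the diabetes difference changed with age was tested as the difference at 20 weeks minus that at 10 weeks. None of the 41 members passed in limma, as none of all probe sets did (0%), and 6 members had an unadjusted p below 0.05 (14.6%, beside 7.95% of all probe sets). These were Slc25a4 (-0.27 ± 0.12), Slc25a11 (-0.26 ± 0.11), Slc25a13 (-0.28 ± 0.11), Slc25a38 (-0.51 ± 0.20), the brighter probe set of Slc25a46 (-0.30 ± 0.12) and, with a positive sign, Slc25a24 (0.49 ± 0.22), with adjusted p of 0.557 to 0.607 in limma. For Slc25a45 the value was -0.30 ± 0.15 (limma, adjusted p = 0.648), so its larger difference at 20 weeks was not shown to differ from that at 10 weeks. The median over the members was -0.16, beside 0.0041 over all probe sets, and 26 of the 41 were negative, beside 9217 of 18625. With each array centred on its median the member median was -0.30 and that of all probe sets -0.14.

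Age itself gave no member that passed in limma. In diabetic rats at 20 weeks against diabetic rats at 10 weeks 0 of 41 passed, beside 0.66% of all probe sets (0.247% higher and 0.413% lower), and 12 had an unadjusted p below 0.05 (29.3%, beside 13.6% of all probe sets). Slc25a4 came nearest, with 5497.3, 5087.5 and 5012.9 at 20 weeks and 6766.9, 7235.7 and 6525.5 at 10 weeks (log2 difference -0.40 ± 0.08, limma, adjusted p = 0.0579). The other members with an unadjusted p below 0.05 included Slc25a34 (0.77), Slc25a45 (-0.36) and Slc25a13 (-0.27 and -0.65). In nondiabetic rats at 20 weeks against nondiabetic rats at 10 weeks 0 of 41 passed in limma, as none of all probe sets did (0%), and 8 had an unadjusted p below 0.05 (19.5%, beside 8.61% of all probe sets). Slc25a34 was among these 8, with a log2 difference of 0.55 ± 0.23 in nondiabetic rats (limma, adjusted p = 0.56). For Slc25a45 the log2 difference in nondiabetic rats was -0.06 ± 0.11. For the brighter and the dimmer Slc25a13 probe set it was 0.01 ± 0.08 and -0.26 ± 0.19. The age comparison in diabetic rats shares arrays with the diabetes comparisons, so these values do not stand apart from them. In diabetic rats the Gapdh ratio was 1.44 to 1.495 at 10 weeks and 1.60 to 1.75 at 20 weeks, without overlap. The 20-week diabetic rats were also injected at a later age. Age, age at injection and RNA quality cannot be told apart in this comparison.

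Carriers outside the numbered family and enzymes that use the carried substrates were read beside the members. Of 7 carriers without a numbered symbol 5 were tested (Ucp1 and Ucp3 were too dim). Of these, 1 passed over both ages (20%, beside 4.47% of all probe sets). This was Mpc1, a subunit of the mitochondrial pyruvate carrier, which fell, with a log2 difference of -0.26 ± 0.07 (limma, adjusted p = 0.0435). Its partner Mpc2 had 0.20 ± 0.07 (adjusted p = 0.15). Of 18 enzymes on the list 16 were measured, and 1 rose and 1 fell over both ages (12.5%, beside 4.47% of all probe sets). Acly, which splits the citrate exported by Slc25a1 into acetyl-CoA and oxaloacetate, averaged 2354 in diabetic and 3056 in nondiabetic rats at 10 weeks, and 1999 in diabetic and 2992 in nondiabetic rats at 20 weeks. It fell by 0.48 ± 0.07 on the log2 scale (limma, adjusted p = 0.0017) over both ages. Gpd1, the cytosolic enzyme of the glycerol phosphate shuttle, averaged 5075 in diabetic and 3766 in nondiabetic rats at 10 weeks, and 5505 in diabetic and 4334 in nondiabetic rats at 20 weeks, and rose by 0.39 ± 0.07 (adjusted p = 0.00504). Its dimmer probe set had the same sign and did not pass (0.31 ± 0.20 over both ages, limma, adjusted p = 0.483). A dimmer probe set of Me1, the cytosolic malic enzyme, fell at 20 weeks (-1.21 ± 0.27, limma, adjusted p = 0.0359), and the brighter had -1.06 ± 0.35 (adjusted p = 0.144). The alternative runs were read for members only, so whether the calls of Mpc1, Acly, Gpd1 and Me1 depend on the processing was not tested.

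Markers of other cortex cells also moved with diabetes, and their part in the carrier results was not tested. For scale, 4.47% of all probe sets passed over both ages. All 4 measured podocyte markers of 5 listed had negative log2 differences over both ages, of which Nphs1 passed (log2 difference -0.48, limma, adjusted p = 0.0157), and their summed signal was 4185 to 5478 in diabetic and 5226 to 5885 in nondiabetic rats at 10 weeks, and 4038 to 4487 in diabetic and 4945 to 5427 in nondiabetic rats at 20 weeks. Of the 5 collecting duct markers Aqp2 rose (0.55) and Atp6v1b1 fell (-0.37), with sums of 9733 to 12584 in diabetic and 7749 to 9494 in nondiabetic rats at 10 weeks, and 9033 to 10369 in diabetic and 7535 to 8504 in nondiabetic rats at 20 weeks. Of 4 tested leukocyte markers of 5 listed Csf1r rose (0.36), and the sums overlapped at both ages. Of 6 fat markers 2 were tested (Adipoq and Cidea), and Plin1, Cfd, Lep and Ucp1 were too dim. Neither of the 2 passed, and both had positive log2 differences over both ages (0.24 and 0.43, not in the order named). The fat sums were 380 to 440 in diabetic and 337 to 389 in nondiabetic rats at 10 weeks. At 20 weeks they were 516 to 614 in diabetic and 338 to 442 in nondiabetic rats, without overlap. None of the 8 proximal tubule markers passed in limma over both ages. Nor did the 4 tested markers of thick ascending limb and distal convoluted tubule (of 6 listed) or the 4 of endothelium (of 5 listed). Each of these lists had 2 at an unadjusted p below 0.05 over both ages, beside 17.9% of all probe sets. This was 25% of the proximal tubule markers, 50% of those of thick ascending limb and distal convoluted tubule and 50% of those of endothelium. The endothelial sums were 5967 to 7178 in diabetic and 6385 to 7168 in nondiabetic rats at 10 weeks. At 20 weeks they were 5701 to 6401 in diabetic and 6526 to 7599 in nondiabetic rats, without overlap.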

How the data were processed

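Kidney cortex RNA of 12 samples was hybridised to 12 one-colour arrays, 3 in each of 4 groups set by the sample titles. Signals were computed by the authors with GCOS per the submitters' processing notes and deposited as intensity on a linear scale, 1 value for each probe set; no source here states the GCOS version, how probes were summarised or which were detected. Each array of that table has a mean of 500.2 after trimming 2% at each end, so the authors had scaled the arrays, and a shift of most transcripts would not show. Of 31099 probe sets, 57 controls were left out, 424 signals below 1 were set to 1, log2 was taken, and the dimmest 40% were left out (geometric mean signal up to 70.9), which left 18625. Gene names came from the platform annotation, with 20826 probe sets naming 1 gene and 436 several. The rule leaves out 2 family members, which are not reported here.

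With 4 group means as terms, all 12 arrays were fitted together in limma 3.58.1 in R 4.3.3 (8 residual degrees of freedom, eBayes with an intensity trend), giving 6 two-sided comparisons with Benjamini-Hochberg adjustment over all 18625. The intervals are those of this fit, and the number of arrays limits the precision. The labels do not tie arrays to rats, so p-values measure the spread between samples, which may be technical. A gene with several probe sets is represented by its brightest in counts of genes.

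Values per array are given for members that passed in any comparison, for the highest signal and the smallest p of each class, and for probe sets of 1 gene that disagree where 1 passed; the text names the exceptions. Members, classes, marker lists and this rule were chosen with earlier results of these data known. Alternatives were quantile and median scaling, no or a stricter dimness filter, an offset of 16, other variance models, array weights, fits of the compared groups alone, a replicate block, the Gapdh ratio as a covariate, both doubted arrays left out (10-week diabetic replicate 1 for its label, 20-week nondiabetic replicate 1 for its Gapdh ratio) and each array left out in turn.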

Additional observations from a re-analysis of the deposited data

How the results depend on the processing

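No called member changed sign under any alternative run, and the counts at 10 weeks, in the interaction and for age in nondiabetic rats were 0 throughout. Over both ages the count of 4 members fell to 2 with no filter on dim probe sets and ranged from 2 to 4 when single arrays were left out, with 2 without 10-week diabetic replicate 2, 20-week diabetic replicate 2 or 20-week nondiabetic replicate 1 or 2. At 20 weeks the count of 3 fell to 1 with no intensity trend and ranged from 1 to 3 when single arrays were left out, with 1 without 20-week diabetic replicate 2 or 3 or 20-week nondiabetic replicate 1, 2 or 3. For age in diabetic rats the count of 0 became 1 (Slc25a4, lower at 20 weeks) under median centring, with the brightest 40% kept and with array weights, and ranged from 0 to 1 when single arrays were left out, with 1 without 20-week nondiabetic replicate 1 (Slc25a4) or 2 (Slc25a13). Leaving out both doubted arrays gave 3 over both ages and 2 at 20 weeks, and quantile normalization gave 5 and 4. The counts do not always stand for the same members. Over both ages, median centring lost both Slc25a13 and the dimmer Slc25a23 probe set. So did leaving out 10-week nondiabetic replicate 1, 10-week diabetic replicate 3 or 20-week diabetic replicate 3. In each of these runs at least 1 probe set described above as not passing was counted. With the replicate block the counts were 4 over both ages, 0 at 10 weeks and 2 at 20 weeks, and 0 in the other comparisons; the call lost was Slc25a34 at 20 weeks (limma, adjusted p = 0.0626). The deviations of the 12 same-number pairs of arrays from their group means had correlations of -0.15 to 0.15. Of these, 4 were above 0.1 and 1 was below -0.1, and 5 pairs matched best with their own number. With 3 arrays a group this cannot show whether samples of the same number share a litter or a batch. Median centring moved the median of all probe sets to -0.14 in the interaction, and the member median ranged from -0.30 to -0.08 there over the alternatives. Fits of the compared groups alone exist for comparisons of 2 groups only, and Slc25a34 and the dimmer Slc25a23 probe set were not tested with the brightest 40% kept. Dim members had wide intervals, and a p that missed the threshold does not show that their levels were alike.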

Other observations

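The machinery that brings carrier proteins into the inner membrane and the outer-membrane channels were read as further groups. Of the 13 import machinery genes, all tested, 0 passed in limma over both ages, at 10 weeks or at 20 weeks. An unadjusted p below 0.05 was found for 3, 0 and 3 (23.1%, 0% and 23.1%). Over all probe sets these shares were 17.9%, 10.9% and 16.8%. Their median log2 difference over both ages was 0.030, in a range of -0.15 to 0.27. Of the 10 genes of outer-membrane channels and mitochondrial biogenesis factors, all tested, 0 passed in these comparisons. An unadjusted p below 0.05 was found for 1, 1 and 0 (10%, 10% and 0%). Their median log2 difference was -0.053, in a range of -0.19 to 0.18.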
